A study of Mus musculus with 4 samples.

Results

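Retinoic acid is a small signalling molecule made from vitamin A, and the 9 genes described here, of 21887 protein-coding mouse genes, carry it from uptake to breakdown. They are Stra6 (uptake), Aldh1a2 (synthesis), Crabp1 and Crabp2 (binding in the cytoplasm), Rara, Rarb and Rarg (nuclear receptors), and Cyp26a1 and Cyp26b1 (degradation). The genes were chosen by name and function, with earlier results of these data known. Every listed peak whose summit lay inside a gene or within 20 kb of either end was taken, with gene ends from RefSeq GRCm38.p6. The Trim33 list had 6 of its 4426 peaks in these windows, the CTCF list 62 of 52446, and the list for histone H3 acetylated at lysine 27 (H3K27ac) 63 of 30047, which makes 131 of 86919 in all.

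The peaks come from chromatin immunoprecipitation followed by sequencing of mouse embryoid bodies at day 6. Embryoid bodies are aggregates in which embryonic stem cells differentiate without a pattern imposed from outside. There were 4 libraries, with antibodies against Trim33, CTCF and H3K27ac, and input DNA as the background for all 3 peak lists. All 4 libraries share 1 cell source, stem cells of the strain labelled Outbred - B6:129Sv that carry Trim33FF, a conditional allele of Trim33, and UbcCreERT2, an inducible Cre recombinase under a ubiquitin promoter. The labels name no treatment, so no library without Trim33 was compared. Embryoid bodies of many dishes were pooled, so a weak peak in many cells and a strong one in few cannot be told apart. Each antibody has 1 library, so nothing below could be set against the spread of replicates and no test was run.

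Stra6 is a membrane receptor that takes up retinol, and Aldh1a2 makes retinoic acid from retinaldehyde. Crabp1 and Crabp2 carry retinoic acid in the cytoplasm, Crabp2 towards the nucleus. Rara, Rarb and Rarg encode the receptors, which bind DNA together with a retinoid X receptor at paired hexamers and recruit corepressors or coactivators depending on the ligand. Cyp26a1 and Cyp26b1 oxidise retinoic acid, and Rarb and Cyp26a1 are classic targets of the receptors themselves, in embryonal carcinoma and embryonic stem cells among others. Trim33 is a chromatin-binding ubiquitin ligase that acts with Smad proteins, CTCF is a zinc-finger protein that insulates domains of the genome, and H3K27ac marks active promoters and enhancers.

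The promoters of 3 members are shown for the letters marked in them, whose place beside the listed peaks is described further on. Each runs 5′ to 3′ from 250 bases before to 50 bases after a listed start site, from RefSeq on build GRCm38.p6. In the first pair, capitals mark a direct repeat of the receptors' hexamer with 5 bases between the copies, on the minus strand of the chromosome in both genes. In the third sequence, capitals mark each CG dinucleotide.
Rarb, chr14:16575427-16575726, minus strand: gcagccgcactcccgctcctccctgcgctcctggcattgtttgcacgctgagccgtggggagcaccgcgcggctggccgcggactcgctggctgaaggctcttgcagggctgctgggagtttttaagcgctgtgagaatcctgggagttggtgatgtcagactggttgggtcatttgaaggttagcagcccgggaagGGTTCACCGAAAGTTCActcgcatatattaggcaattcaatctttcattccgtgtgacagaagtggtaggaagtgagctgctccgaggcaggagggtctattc
Cyp26a1, chr19:37697558-37697857, plus strand: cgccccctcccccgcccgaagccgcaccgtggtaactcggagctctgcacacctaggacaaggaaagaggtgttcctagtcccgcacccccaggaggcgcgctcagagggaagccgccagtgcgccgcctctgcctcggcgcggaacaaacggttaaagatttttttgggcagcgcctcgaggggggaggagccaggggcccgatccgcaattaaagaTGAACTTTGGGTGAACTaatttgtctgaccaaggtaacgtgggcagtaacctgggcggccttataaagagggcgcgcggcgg
Aldh1a2, chr9:71215539-71215838, plus strand: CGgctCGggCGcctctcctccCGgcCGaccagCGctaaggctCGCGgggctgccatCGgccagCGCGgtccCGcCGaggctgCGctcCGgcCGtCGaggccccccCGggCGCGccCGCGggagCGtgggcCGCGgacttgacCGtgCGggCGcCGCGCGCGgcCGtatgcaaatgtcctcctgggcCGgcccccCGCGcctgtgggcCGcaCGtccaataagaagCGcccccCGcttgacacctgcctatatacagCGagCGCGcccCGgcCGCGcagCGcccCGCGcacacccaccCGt

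The repeat began 53 bases before the start site in Rarb, where it runs in the direction of the gene, and 32 bases before it in Cyp26a1, where it runs against the gene. In the direction of the hexamers, Rarb had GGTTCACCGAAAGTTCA and Cyp26a1 had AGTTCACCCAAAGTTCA, so that their second hexamer was the same. The search used the consensus hexamer AGGTCA with its variants AGTTCA or else GGGTCA or else GGTTCA on both strands, as direct repeats with 1, 2 or 5 bases between. Of the 9 genes, 8 had promoters in the RefSeq table, with 15 start sites between them. The repeat spaced by 5 occurred in 2 of these 15 promoters, against 32 of 32851 promoters (0.0974%). Rarb and Cyp26a1 are classic targets of the receptors, and the search was added after the lists had been seen. This contrast is therefore description only. Repeats spaced by 1 or 2 occurred in none of the 15, against 0.222% and 0.268% of all promoters. A single hexamer, which the repeats contain, occurred in 6 of 15, against 43.7% of all promoters. These matches describe letters and are not sites shown to be bound. The 2 promoters differed in their peaks: a CTCF peak of 4.83-fold (the authors' enrichment over local background, here and throughout) spanned the Cyp26a1 repeat, and the listed peak nearest to the Rarb repeat, also of CTCF, lay 128 kb away.

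Trim33 had a summit in the window of 5 of the 9 genes: Stra6, Crabp2, Rarb, Cyp26a1 and Cyp26b1. Of all protein-coding genes, 21.0% had one. CTCF had a summit at 8 of 9, all but Crabp1, against 75.3% of genes, and H3K27ac at 5 of 9, against 59.2% of genes. The member genes with H3K27ac were Stra6, Crabp2, Rara, Rarg and Cyp26a1. The CTCF and H3K27ac counts are near the share over all genes. For Trim33 the members' share of 55.6% was higher than that of all genes, with no test over 9 genes chosen with earlier results known. The members' windows were also longer, with a median of 62.6 kb against 57.2 kb over all genes. The median hides a wide spread. Of the genes with Trim33, Rarb (691 kb) and Stra6 (130 kb) had the longest windows of the set. Crabp2 (44.7 kb) and Cyp26a1 (43.8 kb) had the shortest, and Cyp26b1 had 62.5 kb. The part of window length in the Trim33 share was not tested. Per 100 kb of window the members had 0.465 Trim33, 4.80 CTCF and 4.88 H3K27ac peaks, and all genes had 0.308, 3.79 and 2.51. These values pool the windows, so single genes weigh heavily. Gene by gene, H3K27ac had 32.1 peaks per 100 kb at Rara, 20.8 at Rarg and 7.68 to 17.9 at Stra6, Cyp26a1 and Crabp2. It had 0 at Crabp1, Rarb, Cyp26b1 and Aldh1a2.

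The 9 genes fell into 5 patterns. Stra6, Crabp2 and Cyp26a1 had a peak of every list, as did 17.2% of genes. Rarb and Cyp26b1 had Trim33 and CTCF without H3K27ac, a pattern of 2.70% of genes. Rara and Rarg had CTCF and H3K27ac without Trim33 (36.8% of genes), Aldh1a2 had CTCF alone (18.7%), and Crabp1 had no peak of any list (19.2%). The receptors were thus split: the windows of Rara and Rarg held 28 and 13 of the 63 H3K27ac peaks, and that of Rarb held none.

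**Figure D1:**
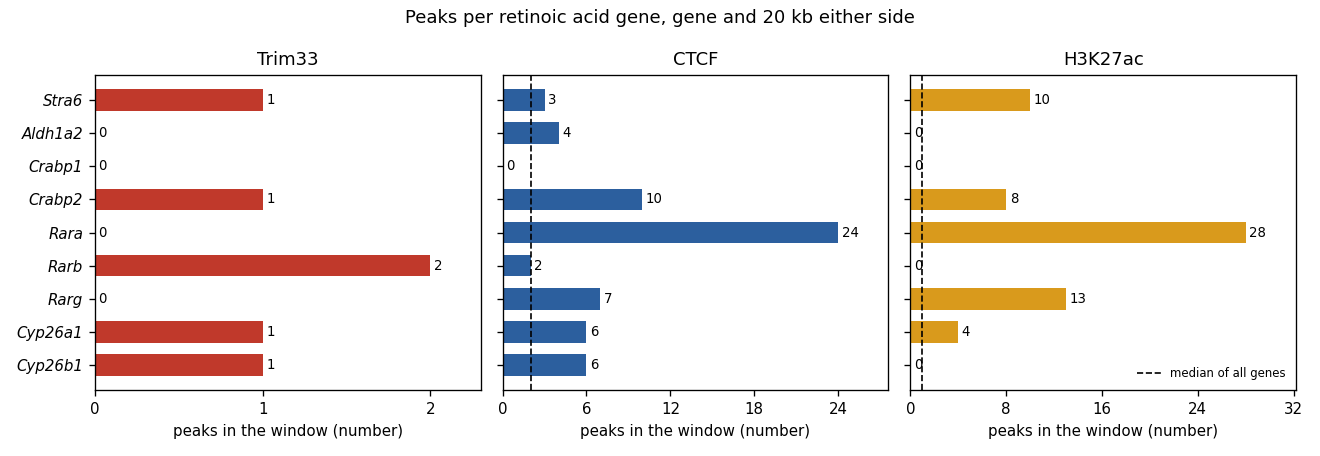
Number of listed peaks with a summit inside or within 20 kb of each gene (horizontal axis), 1 panel per antibody and 1 library each; the dashed line is the median over all protein-coding genes (0 for Trim33, 2 for CTCF, 1 for H3K27ac). Rara stands out with 24 CTCF and 28 H3K27ac peaks and no Trim33 peak, and Crabp1 has none of any kind.

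**Figure D2:**
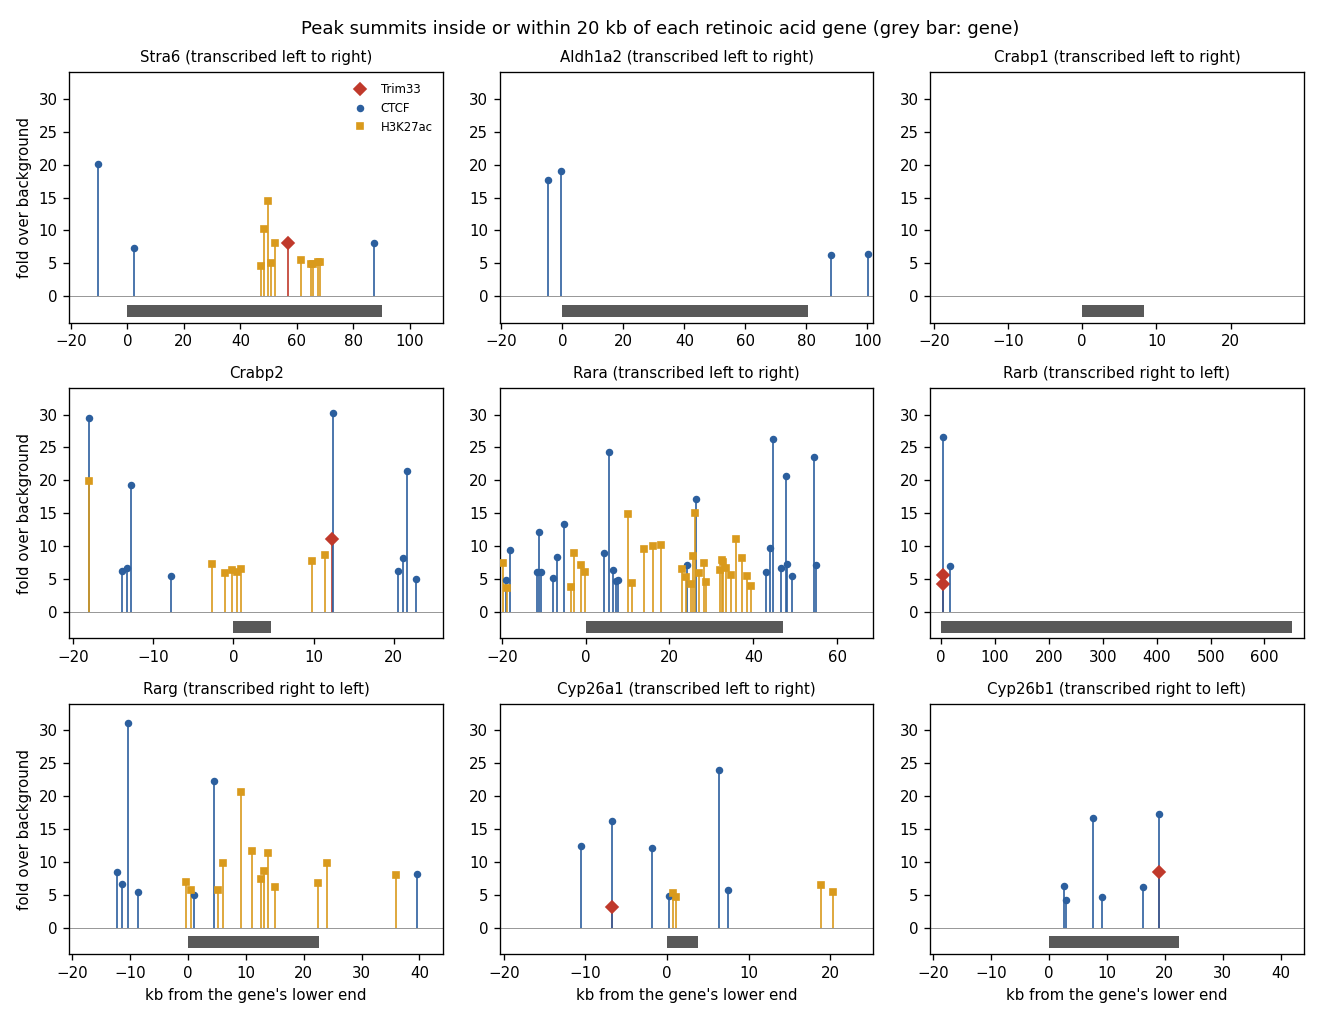
Position of each summit in kb from the end of the gene with the lower coordinate (horizontal axis) and the authors' fold over background (vertical axis), 1 panel per gene; the grey bar is the gene. Trim33 diamonds stand on CTCF summits at Crabp2, Rarb, Cyp26a1 and Cyp26b1 but not at Stra6, and H3K27ac fills the inner part of Rara and Rarg.

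The libraries differed in strength. In the authors' deposited summary, 0.72% of Trim33 reads, 26.46% of CTCF reads and 13.02% of H3K27ac reads lay in peaks, from 13643929, 33090822 and 29995044 tags after filtering, and the input gave 25729171 tags. Duplicates made up 40.9% of the uniquely aligned Trim33 reads and 6.36% to 12.2% of those of the other libraries. The lowest −log10 p in the list was 5.06 for Trim33 and 7.03 for the others, so Trim33 was listed at a looser threshold. At a −log10 p of at least 7, 4 of the 9 genes kept a Trim33 peak, and Cyp26a1 did not. Column names of that summary also give the Trim33 and input libraries a different code, of unstated meaning, from the CTCF and H3K27ac libraries, so code and antibody cannot be told apart. Heights are therefore read only as ranks within a list, and a gene without a listed Trim33 peak may hold one below detection at this depth. As a check of the tissue, H3K27ac lay in or within 1 kb of 4 of 4 pluripotency genes, 3 of 3 neural genes and 3 of 4 endoderm genes. The same limit gave 1 of 5 genes of the primitive streak and mesoderm (Gata4, but not T, Mesp1, Hand1 or Kdr) and 0 of 6 genes of cell types that should be rare. Of all protein-coding genes, 42.9% had H3K27ac in the gene body and 50.5% within 5 kb. With the 20 kb window 1 of the 6 had H3K27ac, Cd79a, with 9 peaks of up to 35.2-fold.

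Stra6 (gene 20897, chr9:58063793-58154004) had 1 Trim33, 3 CTCF and 10 H3K27ac peaks. Its Trim33 peak at chr9:58120565-58120838 was enriched 8.06-fold and stood above 92.0% of the Trim33 list, with a −log10 q of 13.1 (q is the authors' adjusted p-value of a peak against the input). It was the only one of the 6 Trim33 peaks with no CTCF peak over it: the nearest CTCF summit was 30.5 kb away. The nearest H3K27ac summit lay 4.64 kb away, at 8.07-fold. Thus the Trim33 peak sat in a gap between 2 groups of acetylated peaks. On its lower side 5 peaks of 4.66- to 14.5-fold lay where Stra6 overlaps Ccdc33 in the RefSeq table, so they cannot be given to either gene. On its upper side 5 peaks of 4.86- to 5.47-fold lay in Stra6 alone, and 2 of these, at 4.88- and 4.86-fold, were 233 and 199 bases from listed start sites. The Trim33 summit was 8.41 kb upstream of the first listed start of Stra6, so it lay inside the gene by RefSeq span only. Of the CTCF peaks, the highest (20.1-fold) lay outside Stra6, in Ccdc33. Another, of 7.32-fold, lay where the genes overlap and cannot be given to either, and the last, of 8.13-fold, lay in Stra6 alone.

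Aldh1a2 (gene 19378, chr9:71215789-71296243), the enzyme that makes most retinoic acid in the early mouse embryo, had 4 CTCF peaks and no other. A CTCF peak at chr9:71214956-71216045, 19.0-fold and above 81.8% of the list, covered the whole promoter shown above, with its summit 459 bases before the start site, inside the noncoding gene Gm3458. Another, of 17.7-fold, lay 4.70 kb before the start. The remaining pair, of 6.32- and 6.39-fold, lay 7.76 and 19.8 kb beyond the far end of the gene. The promoter held 50 CG dinucleotides in 300 bases, more than 99.1% of promoters, for which the median was 7. The nearest H3K27ac summit was 189 kb from the gene and the nearest Trim33 summit 510 kb.

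Crabp1 (gene 12903, chr9:54764748-54773110) had no peak in its window. The nearest summits lay 26.2 kb from the gene for CTCF (29.8-fold), 28.7 kb for H3K27ac (6.74-fold) and 48.7 kb for Trim33 (6.46-fold). A window of 50 kb would therefore include a peak of each list. Its paralogue Crabp2 had peaks of every list in the 20 kb window, but within 5 kb it had peaks of H3K27ac alone.

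Crabp2 (gene 12904, chr3:87948693-87953372) is a small gene with 1 Trim33, 10 CTCF and 8 H3K27ac peaks around it. The Trim33 peak at chr3:87960705-87961185 was the highest of the 6, at 11.2-fold, above 98.6% of its list, with a −log10 q of 21.4. Its summit lay 7.67 kb from the nearest end of Crabp2, inside the noncoding gene Gm32518 and 10.05 kb from the listed start of Nes, which encodes the neural progenitor filament nestin. A CTCF peak of 30.2-fold, above 96.5% of the CTCF list, shared 354 bases with it, the summits 62 bases apart. An H3K27ac peak of 8.61-fold shared 303 bases, with its summit 896 bases away, which made this the only Trim33 peak of the 9 genes that overlapped both other lists.

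The CTCF and H3K27ac density around Crabp2 was high, above 98.9% and 97.4% of genes. Of the 10 CTCF peaks, 9 were nearer to another gene (Isg20l2, Rrnad1 or Nes), whereas 7 of the 8 H3K27ac peaks had Crabp2 as their nearest gene. The remaining H3K27ac peak, the highest at 20.0-fold, lay in Rrnad1 and Isg20l2 over a CTCF peak of 29.4-fold. At Crabp2 itself the acetylation was modest: 2 peaks inside the gene had 6.10- and 6.56-fold, and 2 just outside its lower end had 6.33- and 5.90-fold at 222 and 1075 bases. All 4 were below the list's median of 6.74-fold. The other 3, of 7.30-, 7.71- and 8.61-fold, were above it and lay 2.72, 5.19 and 6.78 kb from the gene.

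Rara (gene 19401, chr11:98927800-98974942), the receptor gene most widely expressed in mouse tissues, had 24 CTCF and 28 H3K27ac peaks. Both densities were above 99.7% of genes, and the acetylated peaks covered 21.4 kb, or 24.6% of the window. Of the CTCF peaks 16 were below their list's median fold, and 14 had Rara as nearest gene. For H3K27ac these numbers were 14 and 24. Some H3K27ac peaks lay close together, as at chr11:98939648-98942886 and chr11:98942969-98945237, so the count may exceed that of separate sites. Of the H3K27ac peaks 22 lay inside the gene. One of 14.9-fold covered the first pair of listed start sites, with its summit 302 and 324 bases downstream of them, and the highest, 15.1-fold, lay further inside, over a CTCF peak of 17.2-fold. CTCF was split between the gene (11 peaks, 4.70- to 26.3-fold), the replication factor gene Cdc6 next to it (8 peaks, 4.87- to 13.4-fold), the gap junction gene Gjd3 (2 peaks, 7.20- and 23.5-fold) and the space between genes (3 peaks, 5.48- to 20.7-fold). The highest CTCF peak inside Rara, of 26.3-fold, lay near the 3′ end. Among so many peaks none was Trim33's, whose nearest summit was 145 kb from the gene (5.32-fold).

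Rarg (gene 19411, chr15:102234938-102257522) resembled Rara, with 7 CTCF peaks, 13 H3K27ac peaks and its nearest Trim33 summit 98.6 kb away. It had the highest H3K27ac peak of the set, 20.7-fold and above 97.0% of the list, at chr15:102242232-102244744, 2.35 kb downstream of the inner of its 2 listed start sites. A peak of 11.7-fold covered that inner start. The outer start lay between a peak of 6.89-fold, its summit 187 bases downstream, and one of 9.84-fold, its summit 1.40 kb upstream. Only the 9.84-fold peak reached into the outer promoter of 300 bases. Acetylation covered 11.9 kb, or 19.0% of the window. The CTCF list had 1 high peak inside Rarg, of 22.3-fold, and its highest, 31.1-fold, in the integrin gene Itgb7, 10.3 kb beyond the 3′ end.

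Rarb (gene 218772, chr14:16430839-17082331) is the largest of the 9 genes, at 651 kb, and of the genes with any peak it had the fewest for its length. Its only peaks were 2 of Trim33 and 2 of CTCF, all near the 3′ end. Trim33 at chr14:16434492-16434695 had 4.33-fold and at chr14:16434818-16435047 had 5.63-fold, both below the list's median of 5.67-fold, with −log10 q of 3.28 and 5.27. Both lay over a single CTCF peak of 26.6-fold at chr14:16434163-16435198, their summits 48 and 335 bases from its summit, so they may be counted as 1 site. The other CTCF peak had 6.94-fold. The nearest H3K27ac summit lay 64.8 kb from the gene. The start site whose promoter holds the hexamer repeat lay 141 kb from the Trim33 peaks, and none of the 3 lists had a peak over it.

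**Figure D3:**
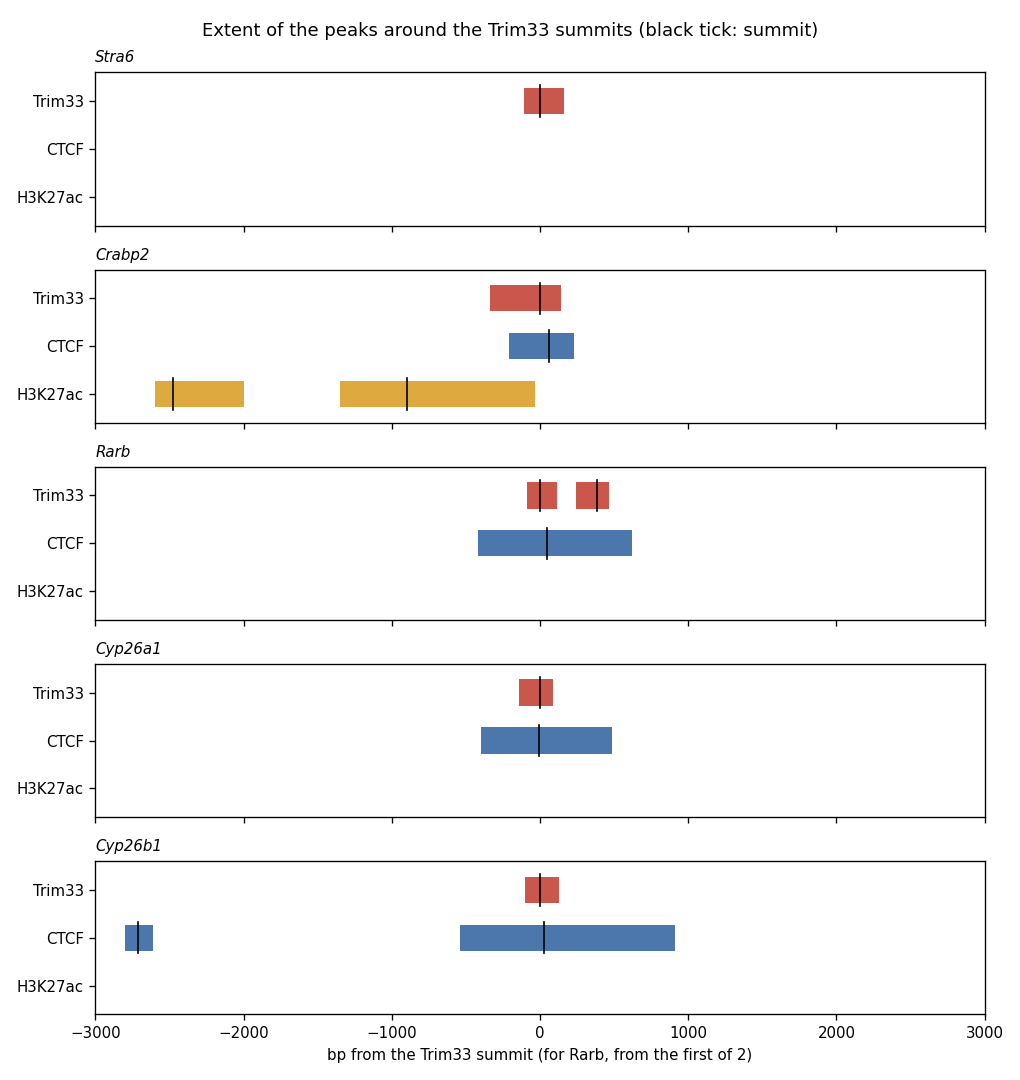
Extent of every listed peak within 3 kb of each Trim33 summit (horizontal axis, bases from the summit; for Rarb from the first of 2 Trim33 summits), 1 row per antibody, with black ticks at summits. CTCF summits stand 7 to 62 bases from the Trim33 summit at Crabp2, Rarb, Cyp26a1 and Cyp26b1, H3K27ac reaches the site at Crabp2 alone, and the Stra6 site has neither.

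Cyp26a1 (gene 13082, chr19:37697738-37701536) had 1 Trim33, 6 CTCF and 4 H3K27ac peaks. The Trim33 peak at chr19:37690822-37691056 was among the weakest of its list, at 3.125-fold with a −log10 q of 3.53, and only 0.452% of the list was lower. It lay inside the neighbouring enzyme gene Cyp26c1 and the noncoding gene Gm32342, 6.77 kb from Cyp26a1, and its summit was 7 bases from that of a CTCF peak of 16.2-fold. This distance was the smallest of the set. At the start of the gene a weak CTCF peak, 4.83-fold and above 6.78% of its list, spanned the hexamer repeat, its summit 134 bases downstream of the start. An H3K27ac peak of 5.33-fold followed, with its summit 627 bases downstream of the start, and it began 159 bases beyond the repeat. All 4 H3K27ac peaks, of 4.63- to 6.55-fold, were below the list's median. The highest CTCF peak, 24.0-fold, lay 2.58 kb beyond the 3′ end.

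Cyp26b1 (gene 232174, chr6:84571414-84593908) had 1 Trim33 and 6 CTCF peaks, all inside the gene, and the nearest H3K27ac summit was 544 kb away. Trim33 at chr6:84590317-84590547 was enriched 8.44-fold, above 93.0% of its list, with a −log10 q of 11.9. It lay 3.39 kb downstream of the start site and within a CTCF peak of 17.3-fold, the summits 30 bases apart. Another high CTCF peak, of 16.7-fold, lay 14.7 kb downstream of the start, and the other 4 had 4.31- to 6.43-fold. The Trim33 site of this degrading enzyme was thus higher in its list than that of Cyp26a1, and it lay in the gene rather than in a neighbour.

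Trim33 peaks at these genes overlapped CTCF in 5 of 6 cases (83.3%), against 44.7% of the whole Trim33 list, and H3K27ac in 1 of 6 (16.7%), against 42.6% of the list. With the Rarb pair counted once, 4 of 5 overlapped CTCF. The summits of the overlapping pairs were 7, 30, 48, 62 and 335 bases apart, and over the 1979 such pairs of the whole list the median was 63 bases (quartiles 29 and 138.5). CTCF fold at the 4 shared sites was 16.2 to 30.2. Higher CTCF peaks carried Trim33 more often in the whole list too: of CTCF peaks at or above the upper quartile of fold 11.5% carried Trim33, and of all CTCF peaks 3.67%. At the 9 genes these shares were 3 of 18 (16.7%) and 4 of 62 (6.45%). The part of CTCF height in the overlap was not tested beyond this split.

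CTCF peaks at the 9 genes overlapped H3K27ac in 7 of 62 cases (11.3%), against 8.23% of the CTCF list, and H3K27ac peaks overlapped CTCF in 8 of 63 (12.7%), against 14.6% of the H3K27ac list. At these genes the 2 kinds of peak thus lay mostly apart, as they did over the genome. Both shares were near those of the whole lists. Of the 63 H3K27ac peaks 46 were inside a member gene, against 24 of 62 CTCF peaks and 4 of 6 Trim33 peaks. Of these 46, 22 were in Rara, and 5 lay where Stra6 overlaps Ccdc33 and cannot be given to either gene. The counts inside genes have no background from the whole lists. Inside a gene is by RefSeq span, which at Stra6 and Rara begins upstream of the first listed start site. Genes also fill much of some windows, as at Rarb with 651 kb of 691 kb. The part of gene length in these counts was not tested.

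**Figure D4:**
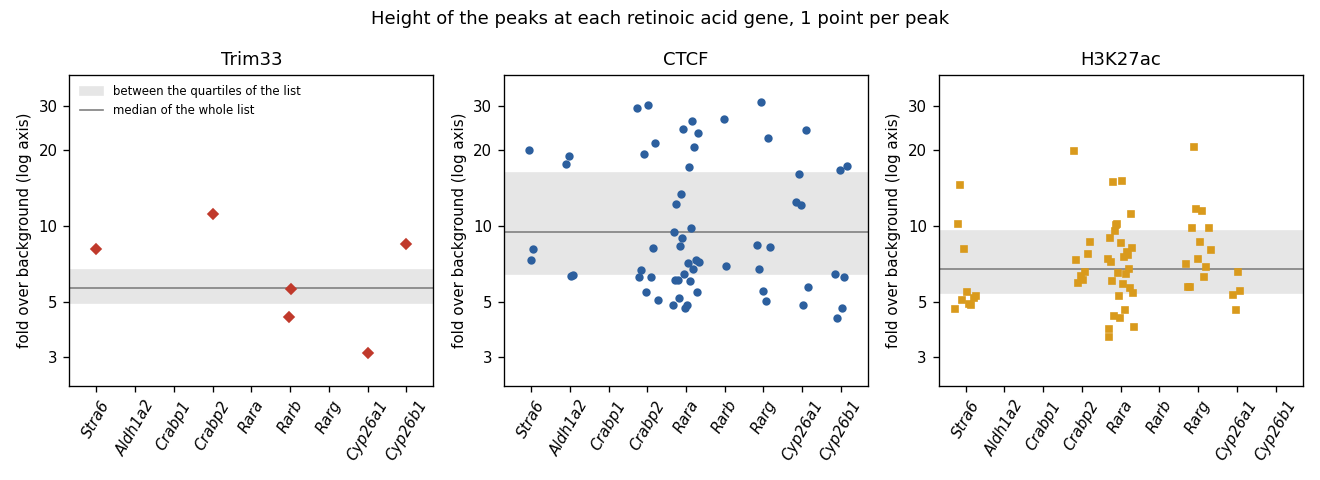
Fold over background of each peak (vertical axis, log scale) by gene and antibody, 1 point per peak; the grey band runs between the quartiles of the whole list and the line is its median. Trim33 points at Stra6, Crabp2 and Cyp26b1 lie above the band and that of Cyp26a1 lies at the bottom, while CTCF and H3K27ac points spread through and beyond both edges of their bands.

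In height the peaks of the 9 genes spread over most of each list. The median was 6.84-fold for Trim33, 7.74-fold for CTCF and 6.72-fold for H3K27ac, against 5.67-, 9.46- and 6.74-fold in the whole lists. Of the CTCF peaks 24 of 62 were at or above their list's median, of the H3K27ac peaks 31 of 63, and of the Trim33 peaks 3 of 6.

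Over the promoters themselves, from 250 bases before to 50 after a start site, Trim33 had no peak at any of the 15 listed starts, against 2.76% of all promoters. CTCF had 2, at Aldh1a2 and Cyp26a1, against 11.8%. H3K27ac had 8 of 15, against 25.4%, and all of them were at Stra6, Rara and Rarg, some of whose starts lie close together and share a peak.

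Around the 9 genes, 21 other genes of the pathway were counted. Of these, 6 had a Trim33 summit (28.6%, against 21.0% of all genes), 17 had CTCF (81.0%, against 75.3%) and 13 had H3K27ac (61.9%, against 59.2%). Among those with Trim33 were the Stra6-like gene Stra6l (6.25-fold), the retinal reductase gene Dhrs3 (5.0-fold), the retinol-binding protein gene Rbp7 (6.47-fold), the corepressor gene Ncor1 (5.64-fold), and Cyp26c1, whose peak is the one counted for Cyp26a1. The highest CTCF peak of this list, 35.6-fold, was at Ppard, which encodes a fatty acid receptor, and its highest H3K27ac peak, 27.7-fold, was at Ncor1. Neither the retinoid X receptors Rxra, Rxrb and Rxrg nor the synthesis genes Rdh10, Aldh1a1 and Aldh1a3 had a Trim33 peak.

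Of 12 genes known to respond to retinoic acid, 4 had a Trim33 summit (33.3%, against 21.0%), 11 had CTCF (91.7%, against 75.3%) and 8 had H3K27ac (66.7%, against 59.2%). Those with Trim33 were the homeobox genes Meis2 (8.04-fold) and Meis1 (3.75-fold), the orphan receptor gene Nr2f2 (4.56-fold) and the hindbrain gene Egr2 (5.58-fold). The highest CTCF peak of this list was at Meis2 (38.8-fold) and the highest H3K27ac peak at Egr2 (20.6-fold). Hoxb1 had 1 CTCF peak of 7.22-fold, 19.6 kb away, and no peak of the other lists.

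For the 3 members with a peak of every list, the most alike of 3757 such genes were sought by the percentile of their highest peak in each list. Sema4c, Fam178b and Clic4 were closest to Crabp2, at distances of 0.968, 1.04 and 1.31 percentage points over the 3 lists together. Peli3, Psmc5 and Smarcd2 were closest to Stra6, at 0.907, 1.28 and 1.28. Cyp26a1 had less close neighbours, Dcaf7, M1ap and Zbtb8b, at 6.11, 8.597 and 9.35. The percentiles describe windows, and the highest peak was not always in the member. For H3K27ac at Crabp2, CTCF at Stra6 and Trim33 at Cyp26a1 it lay in a neighbouring gene. Psmc5 and Smarcd2 had equal percentiles in all 3 lists, and Sema4c and Fam178b in Trim33 and H3K27ac. Whether these pairs share the same peaks was not examined, so they may not be separate matches.

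The limit of 20 kb fell between a CTCF summit 19.8 kb from Aldh1a2 (6.39-fold) and one 22.0 kb from Crabp2 (6.53-fold). For H3K27ac it fell between summits 19.7 kb (7.42-fold) and 20.7 kb (4.73-fold) from Rara. The Trim33 summit farthest inside it was that of Crabp2, and the next outside lay 25.1 kb from Stra6, at 7.002-fold.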

How the data were processed

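Embryoid bodies of 1 stem cell source were assayed at day 6 with 1 library per antibody and 1 input library. Peaks were called by the authors on build mm10, per the file names and the authors' deposited summary. The submitters' processing notes name BWA 0.7.12, SICER 1.1, MACS and MACS2 without their roles. The deposited peak lists give for each peak a score, a fold over background (a ratio), a −log10 p-value, a −log10 q-value and the summit, each list against the same input library. The authors scaled the input to 13643929 tags for Trim33 and used all 25729171 tags for CTCF and H3K27ac, and removed 83, 210 and 407 peaks in blacklisted regions. The authors' deposited summary gives counts of reads and tags and the percent of reads in peaks.

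Peaks were joined to genes of RefSeq GRCm38.p6, the assembly of mm10, by their summits. That table has no exons, so exons, introns and UTRs were not told apart. Strand and start sites came from the RefSeq promoter table, where Crabp2 was not matched. An overlap needed at least 1 bp in common. Shares over all protein-coding genes and whole lists are given as background, with no test, since each antibody has 1 library. A percentile is the share of a list with a lower fold, and a gene's density is its peaks per 100 kb of window. Likeness is the Euclidean distance over the percentiles of the highest peak in each list. Python 3.11.15, numpy 2.4.6, pandas 2.3.3 and matplotlib 3.10.9 were used, and the joins were tested on simulated data.

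All 9 genes are described. Other pathway and target genes are named where they have a Trim33 summit or hold the highest CTCF or H3K27ac peak of their list. Some genes of these lists are counted but not reported here by name. Rxra, Rxrb, Rxrg, Rdh10, Aldh1a1, Aldh1a3 and Hoxb1 are named besides, after their values were seen. The members and lists were chosen with earlier results of these data known. The motif search, the split by CTCF height and the summit distances were also added after the lists had been seen. Alternatives were other windows, stricter peaks, other definitions of overlap and of the nearest gene.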

Additional observations from a re-analysis of the deposited data

How the results depend on the processing

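Of 64 alternative values for the counts over all 9 genes, 50 stayed within 1.5 times the main count. The number of genes with Trim33 was 3 rather than 5 with gene bodies alone or a 5 kb window (Rarb, Cyp26b1 and Stra6, against 8.39% and 13.5% of all genes). Stra6 counted here only through its RefSeq span, since the summit lay 8.41 kb upstream of its first listed start. The number was also 3 at a −log10 q of at least 10 or at or above the list's median fold (Crabp2, Cyp26b1 and Stra6, against 3.47% and 11.05% of all genes). The Trim33 peaks then numbered 3 rather than 6. At a −log10 p of at least 7, near the lowest value of the other lists, 4 genes and 4 Trim33 peaks were left. Where the member had to be the nearest gene, 4 genes and 5 Trim33 peaks were left. Both settings left Cyp26a1 without Trim33, so it no longer had a peak of every list. Shares over all genes were not computed for either setting. The cause was not tested beyond the construction of these alternatives, which use fewer peaks or less sequence. The CTCF peaks numbered 62 by the main count, 24 in gene bodies, 32 within 5 kb, 24 at or above the list's median fold and 35 with the member as nearest gene. The H3K27ac peaks numbered 31 rather than 63 at or above their median fold. With both peaks at a −log10 q of at least 10, 2 of 3 Trim33 peaks overlapped CTCF. By summit, 0 rather than 1 Trim33 peak lay in H3K27ac, and 4 rather than 7 CTCF peaks did.

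Of 225 counts per gene under alternatives, 177 stayed within that range and 48 moved. With 50 kb windows Trim33 was at 6 genes (31.9% of all genes), CTCF at 9 (84.1%) and H3K27ac at 6 (68.5%). Bounding genes by their outermost listed start site, chosen after seeing the data, gave 6 Trim33, 55 CTCF and 61 H3K27ac peaks. No paired analysis was possible because each antibody has 1 library and no result comes from a test. The Trim33 library had the fewest tags, 13643929, and the lowest share of reads in peaks, 0.72%. A gene without a listed Trim33 peak may hold one that was not detectable in this library.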
